A study of Mus musculus with 14 samples.

Results

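Loss of Yme1l was compared with a virus control in cultured neural stem and progenitor cells (NSPCs) of adult mice, using 6 of the 14 RNA-seq libraries of the study and every measured gene. All 6 libraries came from C57BL/6 cells kept in the growth factors FGF and EGF. The 3 control libraries received an adeno-associated virus carrying GFP (below, controls), and the 3 knockout libraries received one carrying Cre-GFP, written in the sample titles as Cr-GFPe (below, KO). Poly-A RNA was sequenced. Cre is a recombinase that cuts out DNA between loxP sites. The labels describe the mouse of origin as wild-type for both groups and name no floxed Yme1l allele, so the level of the target gene is given first. The promoter that drives Cre, the time after infection, any sorting for GFP, and whether replicates were separate animals or cultures are not given in the sources used here. The p-values thus capture only the spread among the libraries sequenced, which may be technical, and an action of Cre itself cannot be told apart from loss of the gene, because the controls received GFP without Cre.

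YME1L is a protease that uses ATP and sits in the inner membrane of mitochondria, with its catalytic domain facing the intermembrane space. It cuts the fusion protein OPA1 and degrades inner membrane and intermembrane space proteins, among them lipid transfer proteins and import subunits, and so adapts the mitochondrial proteome to the state of the cell. Adult NSPCs in FGF and EGF divide, and they can leave the cycle into quiescence, a state with a different balance of fatty acid oxidation, lipid synthesis and lysosomal activity.

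Libraries held 9226080 to 10320736 estimated counts in the controls and 9053124 to 9490756 in the KO. Levels are counts scaled to the TMM-adjusted library size (CPM), always in replicate order 1, 2, 3. A gene was called when edgeR's quasi-likelihood test gave a Benjamini-Hochberg adjusted p under 0.05, and fold changes are log2 of KO over control. The third KO library stood apart from the other 2: on the first principal component (68.9% of the variance) the KO libraries lay at 21.0, 18.6 and 41.0 and the controls at -26.8, -26.3 and -27.5. It was the outermost library in 5054 of the called genes (77.6%). The defining transcripts of the labelled cells were present, with Nestin (Nes) at 1758, 1833 and 1827 CPM in the controls and 1602, 1679 and 1481 CPM in the KO, and Sox2 at 131, 134 and 129 CPM in the controls and 136, 120.5 and 131 CPM in the KO. Nes was called lower (-0.19) and Sox2 was not called. Cx3cr1 and C1qa (microglia), Cldn5 (vessels) and Sox10 and Mog (oligodendrocytes) were at 0 in all 6 libraries.

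Yme1l1 (ENSMUSG00000026775, chromosome 2, 23046381 to 23089272, GRCm39) measured 135, 124 and 121 CPM in the controls and 25.7, 25.6 and 22.9 CPM in the KO. All 3 KO libraries lay far below all 3 controls, about 5.13-fold lower on average (log2 fold change -2.36, SE 0.07, adjusted p = 5.89e-11). The remaining signal came mostly from the same transcript. Yme1l1-201 carried 1317, 1149 and 1245 estimated counts in the controls and 224, 227 and 189 in the KO, which was 98.5% to 99.0% of the gene's counts in the controls and 92.5% to 95.5% in the KO. Poly-A counts of a gene with deleted exons can still include RNA from the shortened gene, and the share of cells that kept the full gene was not measured. Of the 10 tested genes nearest to Yme1l1, 5 were called, against 51.6% of all tested genes: Acbd5 (0.63) and Abi1 (0.34) were higher, and Mastl (-0.82), Pdss1 (-0.74) and Ehmt1 (-0.21) were lower. Acbd5 is a peroxisomal tether, Mastl a mitotic kinase and Pdss1 part of the enzyme that makes the tail of ubiquinone. Gm13340, Spopl, Hnmt, Psd4 and Cacna1b were not called.

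Of 53700 genes in the table, 12625 passed the expression filter and were tested. In all 6509 (51.6%) were called. In the KO 3201 were called higher (25.4% of those tested) and 3308 lower (26.2%), so the counts of list members below are read against about 1 gene in 4 in each direction. Most shifts were small: the median size of a called change was 0.45 on the log2 scale, 3696 of the called genes moved by less than 0.5, and 399 rose and 261 fell by at least 2-fold. The 3 KO libraries and the 3 controls did not overlap in 7746 genes (61.4% of those tested). In the authors' deposited table, 4442 genes had an adjusted p under 0.05, and 4334 of them (97.6%) were called here in the same direction, which is 66.6% of the calls made here. The median log2 fold change over all tested genes was 0.00. Without the third KO library 3104 genes were called higher and 3284 lower.

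**Figure D1:**
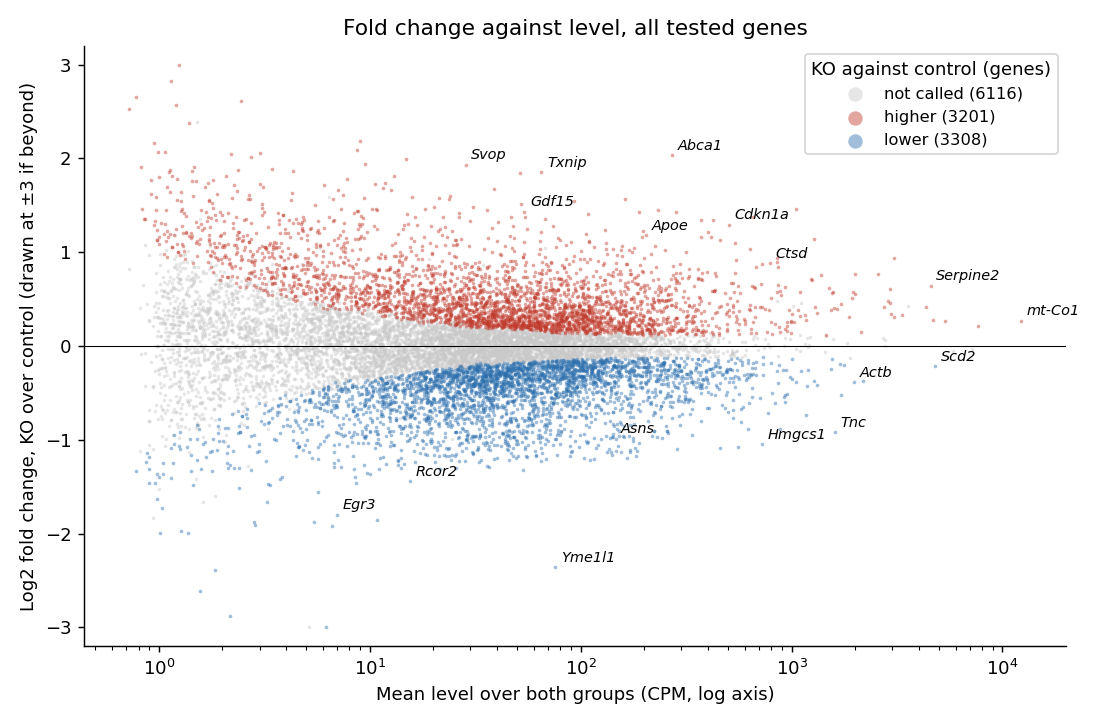
Log2 fold change of KO over control (vertical axis) against the mean level over the 6 libraries in CPM (horizontal axis, log scale) for all 12625 tested genes, with called genes coloured by direction and fold changes beyond 3 drawn at 3. The 3201 higher and 3308 lower genes lie above and below 0 across the range of levels, and Yme1l1 is among the lowest points at -2.36.

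Among genes with a mean of at least 5 CPM and no overlap between the groups, the largest rises included a histone gene, lipid transporters and a potassium channel gene. H2ac19, a histone H2A gene, measured 2.24, 5.36 and 2.20 CPM in the controls and 12.7, 15.6 and 15.8 CPM in the KO (log2 fold change 2.19, SE 0.26, adjusted p = 5.78e-05). Abca1, the transporter that loads cholesterol onto lipoprotein, measured 104, 111 and 106 CPM in the controls and 411, 371 and 530.5 CPM in the KO (log2 fold change 2.03, SE 0.14, adjusted p = 4.8e-05). Txnip, an arrestin that limits glucose uptake and binds thioredoxin, measured 26.9, 30.5 and 27.4 CPM in the controls and 94.8, 81.8 and 129 CPM in the KO (log2 fold change 1.85, SE 0.19, adjusted p = 0.000318). These 3 genes were picked under the rule of no overlap, so the separation of their groups was set in advance. H2ac19 was under 5 CPM in control replicates 1 and 3, and its mean over both groups reached the limit through the KO. The other large rises were Tmem182 (1.99), Ache (1.94), Svop (1.93), Ackr4 (1.84), Kcnt1 (1.82), Atp10b (1.78), Nipal3 (1.73) and Abca6 (1.72). Ache encodes acetylcholinesterase, Svop a synaptic vesicle protein, Ackr4 a scavenging chemokine receptor, Kcnt1 a sodium-activated potassium channel and Atp10b a lipid flippase. Rab43, a small GTPase, had a fold change of 2.09 with a large error (SE 0.59), with control replicate 3 at 0.287 CPM against 4.58 and 5.25 CPM in the other controls, and its call was lost under 7 alternatives (without control 1 or KO 1, 2 or 3, adjusted p 0.0519 to 0.124, among them).

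Within the same limits of level and overlap, the largest falls after Rpl35a-ps3 and Yme1l1 were led by Draxin, a secreted axon guidance protein, at 10.3, 11.7 and 9.57 CPM in the controls and 2.97, 2.58 and 2.72 CPM in the KO (log2 fold change -1.92, SE 0.18, adjusted p = 1.78e-06). Egr3, an immediate early transcription factor, measured 10.3, 11.04 and 11.3 CPM in the controls and 2.76, 3.98 and 2.60 CPM in the KO (log2 fold change -1.80, SE 0.18, adjusted p = 3.55e-06). Both genes were picked under the rule of no overlap, so the separation of their groups was set in advance. Spata13 (-1.87), Zcchc12 (-1.85), Aunip (-1.55), Rcor2 (-1.44), Eme1 (-1.40), Atp10a (-1.36), Egr2 (-1.35) and Smoc1 (-1.32) completed the group of large falls. Eme1 is a subunit of a nuclease that resolves DNA junctions, Rcor2 a transcriptional corepressor and Atp10a a flippase related to the rising Atp10b. Both lipid flippases were called, in opposite directions.

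A pair of called genes had no counts in one group. Rpl35a-ps3, a processed pseudogene of a ribosomal protein gene, had 116, 125 and 124 counts in the controls and 0 in every KO library, at least 113-fold lower against a floor of 3 counts over the group. Reads of such copies are shared with the parent gene and were assigned by salmon, so this value is uncertain. Trpc2, a cation channel gene, had 0 counts in every control and 23, 28 and 18 in the KO, at least 24.7-fold higher. Bounds cover counting error only.

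**Figure D2:**
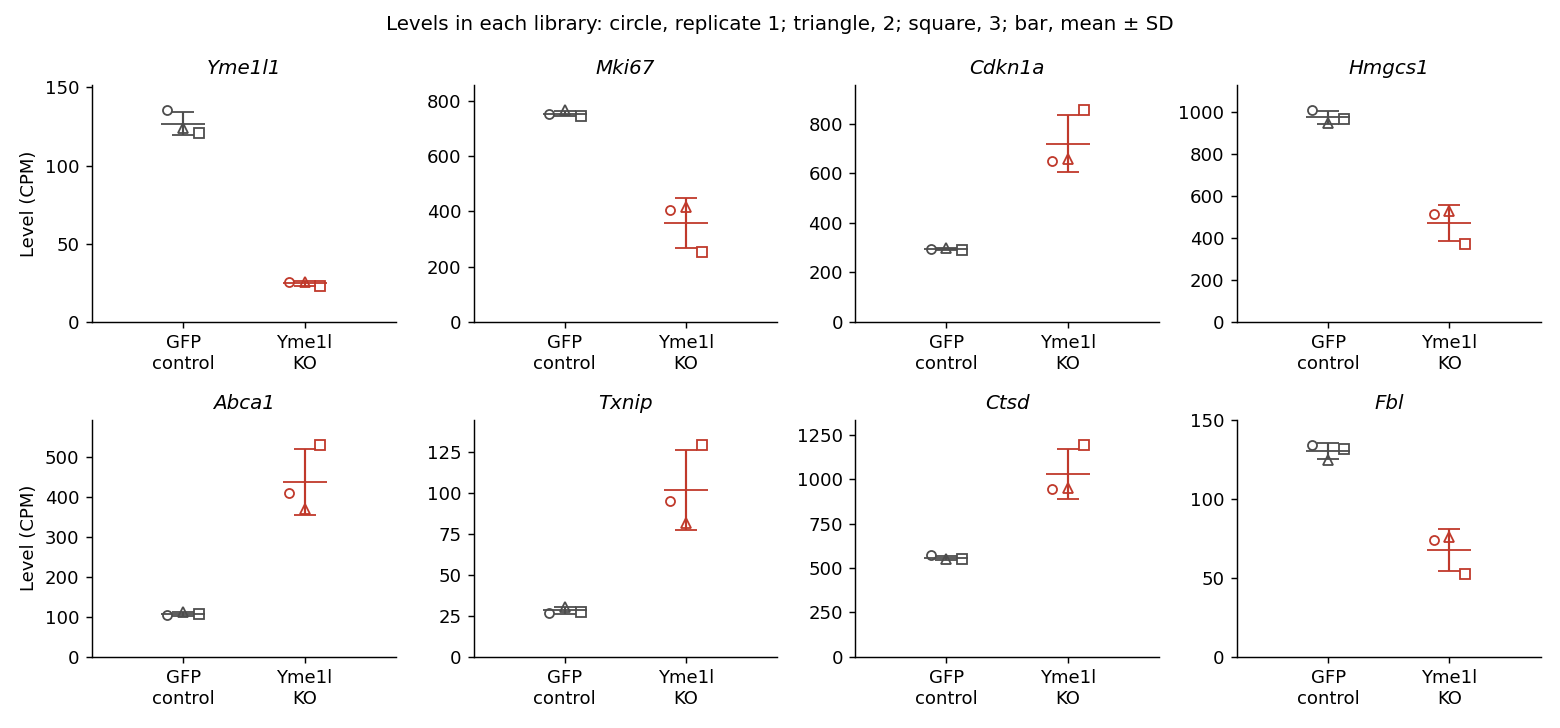
Level in CPM (vertical axes, from 0) of Yme1l1, Mki67, Cdkn1a, Hmgcs1, Abca1, Txnip, Ctsd and Fbl in each of the 3 control and 3 KO libraries, with long horizontal lines for the mean and error bars for the SD (n = 3). In every panel the 3 KO points lie on one side of the 3 control points, and the third KO library is farthest from the controls in Mki67, at 253 CPM against 404 and 417 CPM.

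Genes of the cell cycle fell together and had the lowest medians of all 56 gene lists examined. All 51 tested genes of DNA replication were called lower (median -0.97, range -1.30 to -0.39), and so were 54 of 55 genes of G2/M and mitosis (median -1.05). Pttg1, which encodes securin, was the exception and rose (0.52). Since the bulk counts are relative, fewer cells of a type and less RNA per cell cannot be told apart here, nor in any later result.

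By role, all 12 licensing genes that load the replicative helicase, all 32 genes of the fork and polymerases and all 7 genes of G1/S control were lower. The medians were -1.01, -0.95 and -0.82. Mcm6, a helicase subunit, measured 216, 201 and 219.5 CPM in the controls and 118, 114 and 92.1 CPM in the KO (log2 fold change -0.97, SE 0.08, adjusted p = 4.15e-06). Pcna, the polymerase clamp, changed by -0.95, and Ccne1, the cyclin of S phase entry, by -0.81. In G2/M, all 14 mitotic kinases and cyclins (median -1.15) and all 27 kinetochore and spindle genes (median -1.05) were lower. Mki67, the proliferation marker Ki-67, measured 751, 765 and 744 CPM in the controls and 404, 417 and 253 CPM in the KO (log2 fold change -1.07, SE 0.21, adjusted p = 0.0102). Cdk1, the mitotic kinase, measured 152, 133 and 147 CPM in the controls and 77.2, 84.1 and 50.4 CPM in the KO (log2 fold change -1.03, SE 0.19, adjusted p = 0.00707). The groups were fully separate in Mcm6, Mki67 and Cdk1, with the third KO library lowest. Ccnb1 (-1.20), Top2a (-1.08), Aurkb (-1.19) and Birc5 (-0.96) fell likewise. The median of the mitotic list was -0.90, -0.87 and -1.44 in KO libraries 1, 2 and 3 relative to the controls, and it was -0.88 in the fit without the third.

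Many promoters of mitotic genes hold a short element, the cell cycle genes homology region (CHR), which cells use to keep such genes off outside G2 and mitosis. The letters TTTGAA, searched on both strands from 250 bases before to 50 bases after the start, occurred in 30 of 44 tested mitotic genes with a RefSeq promoter (68.2%). They occurred in 13.8% of all tested genes with one, and in 7 of 39 replication genes (17.9%). The CCAAT box, searched as CCAAT, occurred in 70.5% of the mitotic promoters, 66.7% of the replication promoters and 43.8% of all. A match is a description of the letters and not of a bound factor. Over all promoters of genes called lower the TTTGAA share was 16.0%. A pair of mitotic promoters are shown upstream of the start as examples of the element. They are read along the gene, from RefSeq (GRCm38.p6), Cdk1 at chr10:69352913-69353032, minus strand, and Top2a at chr11:99024190-99024309, minus strand, with the CHR letters or their reverse complement in capitals.

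Cdk1: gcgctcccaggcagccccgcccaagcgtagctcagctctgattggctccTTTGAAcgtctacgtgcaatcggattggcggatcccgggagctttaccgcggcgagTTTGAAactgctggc
Top2a: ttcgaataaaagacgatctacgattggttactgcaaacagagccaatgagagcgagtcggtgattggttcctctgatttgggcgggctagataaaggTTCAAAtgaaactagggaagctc

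In these 120-base stretches the Cdk1 promoter carries the letters at 71 and at 15 bases before the start, and the Top2a promoter at 23 bases, as the reverse complement TTCAAA.

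Genes of homologous recombination and the Fanconi pathway followed, with 22 of 22 lower (median -0.89). Brca1 (-0.94) and Brca2 (-0.68) were among them. Among inhibitors of the cycle and genes of cell cycle exit, 12 of 17 were higher and 4 lower (median 0.37). Cdkn1a, which encodes the p53-induced inhibitor p21, measured 293, 299 and 288 CPM in the controls and 647, 658 and 854 CPM in the KO (log2 fold change 1.29, SE 0.10, adjusted p = 2.82e-05). All 3 KO libraries were above all controls, and the third was again outermost. Ccng1 (1.13), Tob1 (0.99), Btg2 (0.74) and Rbl2 (0.68) were also higher, while Rbl1 (-1.09), Cdkn2c (-0.78), Cdkn2a (-0.42) and Cdkn2d (-0.32) were lower. With limma on log2(TPM + 1), 7 of the 17 were higher. The G1 list of 8 genes had 4 higher, of which Mxd4, an antagonist of Myc, was the largest (1.38), followed by Ccnd2 (0.26), Mxi1 (0.23) and Ccnd1 (0.15), and 2 lower, Cdk4 (-0.67) and Myc (-0.25). The calls of Mxi1 and Ccnd1 were lost when one library was left out (Mxi1 without control 1, 2 or 3 or KO 1 or 3, adjusted p 0.074 to 0.134, and Ccnd1 without control 1, 2 or 3, adjusted p 0.0516 to 0.0799), and so was that of Cdkn2d (without control 1, adjusted p = 0.0533).

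Targets of p53, the factor that answers DNA damage and other stress with arrest or death, were mostly higher: 32 of 39, with 3 lower (median 0.63). All 9 genes of cell death, 13 of 17 genes of arrest and feedback, and 10 of 13 of repair and metabolism were higher. Gdf15, a secreted stress hormone, measured 24.6, 30.8 and 32.3 CPM in the controls and 69.03, 70.4 and 97.5 CPM in the KO (log2 fold change 1.43, SE 0.17, adjusted p = 0.000334). Bbc3, the death gene PUMA, measured 12.4, 12.5 and 11.8 CPM in the controls and 28.1, 25.3 and 42.5 CPM in the KO (log2 fold change 1.38, SE 0.20, adjusted p = 0.000516). The groups did not overlap in either. Pmaip1 (1.45), Mdm2 (0.66), Zmat3 (0.63), Eda2r (1.10), Bax (0.40) and Phlda3 (1.08) rose as well. The 3 lower members were Trp53 (-0.53), Gtse1 (-0.50) and Tigar (-0.46), of which Trp53 encodes p53 itself and Gtse1 is a mitotic gene.

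**Figure D3:**
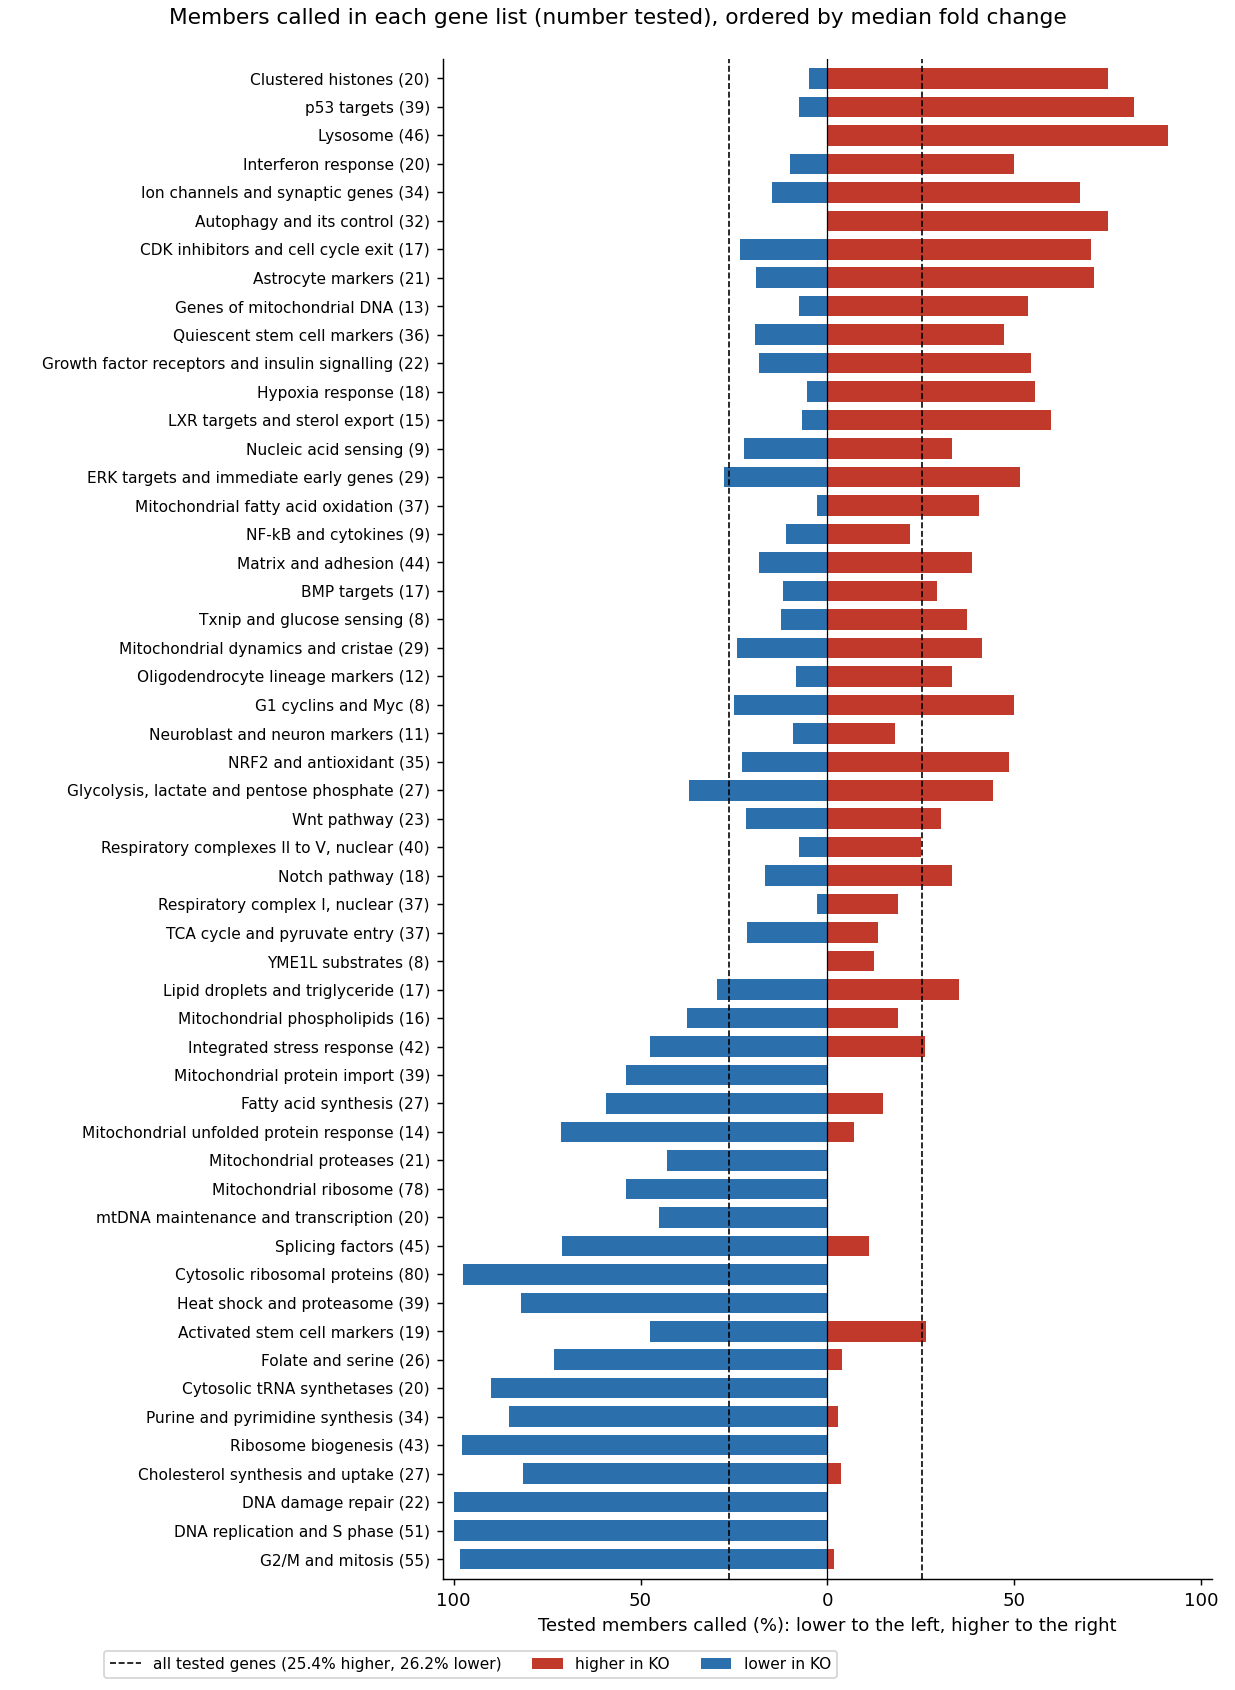
Percent of the tested members of each gene list called higher (to the right of 0) or lower (to the left of 0) in the KO, for lists with at least 8 tested members, ordered by median log2 fold change, with dashed lines at the 25.4% higher and 26.2% lower of all tested genes. All tested members of the replication and recombination lists are on the lower side, and 42 of 46 lysosome members are on the higher side.

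Genes of cholesterol synthesis were mostly lower, and genes of sterol export more often higher. Of 27 genes of synthesis, uptake and their control, 22 were lower and 1 higher (median -0.84). Among the 20 enzymes of the pathway, 19 were lower (median -0.90). Hmgcs1, which starts the pathway by making HMG-CoA, measured 1009.6, 948 and 969 CPM in the controls and 515, 530.0 and 370.5 CPM in the KO (log2 fold change -1.05, SE 0.14, adjusted p = 0.000885). Idi1, which isomerises isopentenyl units, changed by -1.12, and Sqle, the squalene epoxidase, by -0.60. Srebf2, the factor that drives these genes, changed less (-0.39). Insig1, an inhibitor of that factor and one of its targets, was not called (-0.11, adjusted p = 0.0716), and its relative Insig2 was the member that rose (0.41).

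Sterol-regulated promoters often combine a sterol element with a CCAAT box. CCAAT occurred in 18 of 20 promoters of this list (90.0%) against 43.8% of all tested genes, and the sterol element core TCACCCC in 3 of 20 (15.0%) against 5.95%. The Hmgcs1 promoter, from chr13:119690151-119690350, plus strand (RefSeq, GRCm38.p6), is shown as the enzyme at the head of the pathway, with the core in capitals 137 bases before the start.

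Hmgcs1: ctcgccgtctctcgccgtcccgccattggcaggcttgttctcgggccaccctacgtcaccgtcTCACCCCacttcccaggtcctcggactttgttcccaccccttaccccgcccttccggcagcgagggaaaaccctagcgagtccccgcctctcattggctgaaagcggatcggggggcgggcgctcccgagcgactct

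Targets of the sterol-sensing LXR receptors and genes of sterol export were higher in 9 of 15 cases and lower in 1 (median 0.25). Apoe, the carrier of brain lipoprotein, measured 124, 121 and 129 CPM in the controls and 251, 241 and 357 CPM in the KO (log2 fold change 1.18, SE 0.17, adjusted p = 0.0025). Pltp (0.74), Smpdl3a (0.73) and Abca7 (0.61) were higher as well, and Abca1 is given above. Scd2, a desaturase that is among the genes with the most counts of all that fell, was the member that was lower (-0.21). For fatty acid synthesis, 16 of 27 genes were lower and 4 higher (median -0.21). Fasn (-0.56), Acaca (-0.63) and Acly (-0.59), the core enzymes, were lower. The higher members were Thrsp (1.04), Hacd2 (0.45), Elovl2 (0.24) and Me1 (0.18). Genes of lipid droplets were split, 6 higher and 5 lower of 17 (median -0.01). Pnpla2 (0.79), Mgll (0.59) and Abhd5 (0.49), lipase genes or a lipase activator, were higher, Fabp7 (-0.88), Dgat2 (-0.63) and Fabp5 (-0.38) were lower, and the droplet coat gene Plin2 was not called (0.04, adjusted p = 0.785). Fabp7 binds fatty acids in neural stem cells, and Dgat2 makes triglyceride.

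Most mitochondrial genes moved little or in small steps. Of 8 listed substrates of YME1L, 7 were not called at the RNA level, Opa1 (0.02, adjusted p = 0.789) and Oma1 (-0.02, adjusted p = 0.891) among them, and Cox4i1, a complex IV subunit, was higher (0.30). Of 21 proteases and their partners, with Yme1l1 not among them, 9 were lower and 0 higher (median -0.22). Pitrm1 (-0.55), Stoml2 (-0.42), Phb (-0.40), Phb2 (-0.37), Clpp (-0.31) and Lonp1 (-0.24) were lower, and the AAA protease subunit Spg7 was not called (0.00, adjusted p = 0.983). Stoml2 encodes a membrane scaffold that binds YME1L, and Phb and Phb2 encode prohibitins.

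Of 78 mitochondrial ribosome genes, 42 were lower and 0 higher (median -0.24). Of 39 import genes, 21 were lower and 0 higher (median -0.20), and of 20 genes that maintain and express mitochondrial DNA, 9 were lower and 0 higher (median -0.25), with Twnk (-0.38) and Ssbp1 (-0.39) among them. Twnk encodes the mitochondrial helicase. Nuclear subunits of the respiratory chain centred near 0. Complex I had 7 higher and 1 lower of 37 (median 0.04, and 0.02 without the third KO library), and complexes II to V had 10 higher and 3 lower of 40 (median 0.05), shares below the 25.4% and 26.2% of all genes or close to them. Ndufa13 (0.32), Ndufv3 (0.30), Cox6c (0.36) and Cox6a1 (0.32) were among the higher ones.

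Of the 13 protein-coding genes of mitochondrial DNA, 7 were higher and 1 lower (median 0.28). mt-Nd5, a complex I subunit, measured 2469.9, 2577 and 2341 CPM in the controls and 3318, 3352 and 3465 CPM in the KO (log2 fold change 0.46, SE 0.05, adjusted p = 5.87e-06). mt-Co1, a complex IV subunit, measured 11211, 11279 and 10898 CPM in the controls and 13476, 13001 and 13786 CPM in the KO (log2 fold change 0.27, SE 0.05, adjusted p = 0.000202). mt-Nd6, the gene read from the other strand of the circle, measured 29.6, 30.4 and 24.99 CPM in the controls and 16.5, 15.2 and 19.6 CPM in the KO and was lower (log2 fold change -0.73, SE 0.11, adjusted p = 9.82e-05). The libraries were poly-A selected, which affects how mitochondrial transcripts are captured, and its part in these values was not tested. mt-Nd3 was among the genes with the largest spread within the KO and was not called (1.04, adjusted p = 0.21).

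Mitochondrial fatty acid oxidation had 15 higher and 1 lower of 37 (median 0.22). Cpt1a, which commits fatty acids to import, measured 90.4, 91.6 and 92.7 CPM in the controls and 138, 146 and 149 CPM in the KO (log2 fold change 0.65, SE 0.05, adjusted p = 7.94e-07). Ppargc1a, a coactivator of oxidative genes, measured 81.8, 76.7 and 79.4 CPM in the controls and 134, 114 and 139 CPM in the KO (log2 fold change 0.70, SE 0.07, adjusted p = 4.15e-06). The KO and control libraries did not overlap in these genes. Cpt1c (0.98), Acad11 (0.85), Acadsb (0.78), Esrra (0.57), Hadhb (0.42) and Acadl (0.32) were higher too. Acat1, a thiolase of ketone and isoleucine use, was the member that fell (-0.28). The TCA cycle list centred near 0, 5 higher and 8 lower of 37 (median 0.01). Pdk2 (0.95) and Pdk1 (0.84), kinases that shut pyruvate dehydrogenase, were higher, followed by Idh3g (0.21) and Sdhc (0.20). Pcx (-0.68) and Idh1 (-0.36) were lower, and Cs (0.01, adjusted p = 0.815) and Pdha1 (0.01, adjusted p = 0.818) were not called.

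Of 29 genes of mitochondrial shape, 12 were higher and 7 lower (median 0.15, and 0.09 without the third KO library). The mitophagy genes Pink1 (1.02) and Bnip3l (0.47) were higher. So were the fusion genes Mfn1 (0.42) and Mfn2 (0.28), while the fission gene Dnm1l was not called (-0.01, adjusted p = 0.846). Mtfr2 (-1.08) and Mtfr1 (-0.65) were the lowest members. Mitochondrial phospholipid genes had 3 higher, Cds1 (1.19), Cds2 (0.62) and Hadha (0.22), and 6 lower of 16. The call of Cds1 was lost in several of those fits (without control 1 or 3 or KO 1 or 3, adjusted p 0.0567 to 0.112). Tamm41, an enzyme of cardiolipin synthesis, was the lowest member (-0.49).

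The integrated stress response, which slows translation and induces amino acid genes through ATF4, moved in both directions. Of its 42 genes 11 were higher and 20 lower, and of the 27 targets alone 8 and 15 (median -0.43). Atf4 measured 214, 223 and 221 CPM in the controls and 166, 169.7 and 152 CPM in the KO (log2 fold change -0.43, SE 0.05, adjusted p = 1.33e-05). Asns, which makes asparagine and is a classic target, measured 197, 203 and 185 CPM in the controls and 99.3, 117 and 78.4 CPM in the KO (log2 fold change -0.99, SE 0.13, adjusted p = 0.000885). The groups did not overlap in either, with the KO lower. Shmt2 (-1.03), Mthfd2 (-0.95), Chac1 (-0.97), Psat1 (-0.65) and Trib3 (-0.68) fell, while Gdf15 (1.43), Cbs (0.82), Sesn2 (0.70), Ddit4 (0.64) and Atf5 (0.40) rose, and Ddit3 was not called (0.29, adjusted p = 0.066). Gdf15, Sesn2 and Ddit4 are also p53 targets. Of 14 genes of the mitochondrial unfolded protein response 10 were lower, Yme1l1 itself among them, and Atf5 was higher. The matrix chaperones Hspd1 (-0.76), Hspe1 (-0.60) and Hspa9 (-0.25) were lower.

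Of 39 heat shock and proteasome genes 32 were lower and 0 higher (median -0.32). Hsp90ab1 (-0.37) and Hspa8 (-0.20), cytosolic chaperones, were among the genes with the most counts of all that fell. NRF2 targets and antioxidant genes were divided, 17 higher and 8 lower of 35 (median 0.09). Hmox1, which breaks down haem, changed by 0.55, and the lower members were led by Gsr (-0.60), Txnrd1 (-0.53), Abcc1 (-0.47) and Slc7a11 (-0.43). Of 18 hypoxia genes 10 were higher and 1 lower, Pfkfb3 (median 0.25). Ndrg1 (1.15), Epas1 (0.39), Adm (0.32) and Vegfa (0.30) were higher.

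Interferon-induced genes were higher in 10 of 20 tested cases and lower in 2 (median 0.45, and 0.29 with 8 higher without the third KO library). Tap1, a peptide transporter of antigen presentation, measured 10.8, 10.4 and 12.2 CPM in the controls and 22.6, 23.1 and 29.1 CPM in the KO (log2 fold change 1.16, SE 0.12, adjusted p = 5.4e-06). Parp14 (1.10), Ifitm3 (0.46) and B2m (0.29) were higher and Ifit2 (-0.58) and Gbp3 (-0.47) lower. Another 13 listed members, Isg15, Ifit1 and Irf7 among them, did not pass the expression filter. Of 9 genes listed for nucleic acid sensing, as sensors or adaptors, Sting1 (0.73), Tlr3 (0.42) and Mavs (0.24) were higher. Cgas (-0.98) and Samhd1 (-0.35) were lower, and Samhd1 is also counted in the nucleotide synthesis list. The call of Mavs was lost in one fit (without control 3, adjusted p = 0.0812). Sting1 encodes the adaptor that acts below the DNA sensor encoded by Cgas. Both groups had received a virus, so an effect of infection common to both is not in the contrast.

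Genes of growth and synthesis fell. Cytosolic ribosomal proteins were lower in 78 of 80 cases (median -0.31, range -0.54 to -0.06) and ribosome biogenesis genes in 42 of 43 (median -0.73). Fbl, which methylates ribosomal RNA, measured 134, 125 and 132 CPM in the controls and 74.2, 76.03 and 52.3 CPM in the KO (log2 fold change -0.95, SE 0.13, adjusted p = 0.00063). Ncl, the abundant nucleolar protein nucleolin, measured 1008, 982 and 1046 CPM in the controls and 688, 707 and 592 CPM in the KO (log2 fold change -0.61, SE 0.06, adjusted p = 4.24e-06). Of 20 cytosolic tRNA synthetases 18 were lower (median -0.58). Nucleotide synthesis was lower in 29 of 34 genes and higher in 1 (median -0.73). Rrm2 (-1.19), Tk1 (-1.16), Tyms (-0.92) and Rrm1 (-0.77), which supply deoxynucleotides, fell, and Rrm2b, the p53-inducible subunit of the same reductase, rose (0.32, but without control 2, adjusted p = 0.0788). Dhodh, an inner membrane enzyme of pyrimidine synthesis, measured 24.2, 24.98 and 22.3 CPM in the controls and 14.02, 13.8 and 14.4 CPM in the KO (log2 fold change -0.76, SE 0.10, adjusted p = 2.36e-05). The folate and serine list had 19 lower and 1 higher of 26 (median -0.51), Shmt2 (-1.03), Mthfd2 (-0.95) and Psat1 (-0.65) among the lower and Aldh1l1, an astrocyte and stem cell marker, the higher (0.28). Shmt2, Mthfd2 and Psat1 are also counted in the integrated stress response list above. Splicing factors were lower in 32 of 45 cases and higher in 5 (median -0.27), the latter Rbfox1 (2.65), Clk1 (0.45), Mbnl2 (0.39), Rbfox2 (0.30) and Son (0.19). Rbfox1 did not meet the limits of level and overlap set for the largest rises above, so its fold change is less certain.

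Lysosome genes rose together. Of 46 tested genes of hydrolases and lysosomal membrane, 42 were higher and 0 lower (median 0.51, range 0.09 to 1.25). Ctsd, a protease of the lumen, measured 571, 551 and 549.6 CPM in the controls and 943, 948 and 1192 CPM in the KO (log2 fold change 0.88, SE 0.08, adjusted p = 1.77e-05). Lamp1, the major membrane protein, measured 679, 674 and 667 CPM in the controls and 1009, 994 and 1164 CPM in the KO (log2 fold change 0.65, SE 0.06, adjusted p = 1.71e-06). Naglu (0.75) and Ctsb (0.52) were higher as well. The KO libraries did not overlap the controls in Ctsd and Lamp1. Autophagy followed, with 24 of 32 higher and 0 lower (median 0.40). Map1lc3b, which coats autophagosomes, measured 100.2, 100.2 and 98.9 CPM in the controls and 156, 156 and 199 CPM in the KO (log2 fold change 0.77, SE 0.09, adjusted p = 4.49e-05). Sqstm1, a cargo receptor, rose by 0.61. The factor Tfe3 was higher (0.42) and its relative Tfeb was not called (0.15, adjusted p = 0.388).

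Factors of that family bind an element called CLEAR. Its core TCACGTG, which contains the E-box CACGTG, was found on either strand in 11 of 36 lysosome promoters (30.6%) against 7.12% of tested genes. It occurred in 8.06% of all promoters of genes called higher. The promoters of Lamp1 (chr8:13159041-13159160, plus strand) and Naglu (chr11:101069974-101070093, plus strand; RefSeq, GRCm38.p6) are shown as examples with several cores and with one, capitals marking the core or its reverse complement CACGTGA.

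Lamp1: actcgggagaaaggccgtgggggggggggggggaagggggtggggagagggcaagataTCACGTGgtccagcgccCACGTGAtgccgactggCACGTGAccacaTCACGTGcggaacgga
Naglu: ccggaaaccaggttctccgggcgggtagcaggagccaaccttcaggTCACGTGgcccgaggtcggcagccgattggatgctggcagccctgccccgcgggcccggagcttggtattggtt

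In the 120 bases before the start, Lamp1 carries the letters 62, 45, 28 and 16 bases upstream and Naglu 74 bases upstream.

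Sugar metabolism changed member by member. Of 27 genes of glycolysis, lactate and the pentose phosphate path 12 were higher and 10 lower (median 0.08). Hk2, the hexokinase of proliferating cells, measured 18.5, 18.1 and 20.1 CPM in the controls and 8.60, 9.25 and 6.56 CPM in the KO (log2 fold change -1.21, SE 0.13, adjusted p = 6.74e-06), while Hk1 was higher (0.37). Ldhb (0.78), Pkm (0.61), Pfkfb2 (0.58) and Gpi1 (0.41) were higher, Aldoc (-0.90), Rpia (-0.62), Tkt (-0.45) and Taldo1 (-0.46) lower, and Ldha was not called (-0.04, adjusted p = 0.508). Rpia, Tkt and Taldo1 belong to the pentose phosphate path that feeds nucleotide synthesis. Of 8 genes around Txnip and glucose sensing, Txnip (1.85), Mlxip (0.56) and Arrdc4 (0.41) were higher and Klf10 (-0.26) lower. Mlxip is a glucose-sensing factor that drives Txnip and Arrdc4.

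Targets of growth factor signalling moved in both directions. Of 29 ERK targets and immediate early genes 15 were higher and 8 lower (median 0.22, and 0.15 without the third KO library). The higher ones included feedback inhibitors and later targets of ERK, Dusp4, an ERK phosphatase, at 144, 145 and 146 CPM in the controls and 289, 288 and 334 CPM in the KO (log2 fold change 1.07, SE 0.06, adjusted p = 8.32e-08), with Etv5 (0.76), Spry1 (0.72) and Spry4 (0.63). The lower ones included the immediate early gene Egr1 at 191, 196 and 185 CPM in the controls and 89.96, 97.4 and 74.6 CPM in the KO (log2 fold change -1.12, SE 0.08, adjusted p = 9.69e-07), with Egr3 and Egr2, given above, and Ier2 (-0.73) and Jun (-0.30), while Ier3, also an immediate early gene, was higher (0.31). Of 22 growth factor and insulin genes 12 were higher and 4 lower (median 0.26). Foxo3, a factor that holds stem cells in quiescence, measured 105, 109 and 108 CPM in the controls and 195, 184 and 245 CPM in the KO (log2 fold change 0.96, SE 0.10, adjusted p = 5.84e-05). Igfbp4 (0.94), Irs2 (0.79), Igf1r (0.51) and Insr (0.43) were higher and Foxo6 (-1.02), Erbb4 (-0.60), Pik3r1 (-0.26) and Fgfr3 (-0.19) lower, the call of Foxo6 not holding in one fit (without control 1, adjusted p = 0.0767).

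BMP signalling keeps adult neural stem cells quiescent. Of its 17 genes Fst (0.74), Id2 (0.55), Id1 (0.45), Bmpr2 (0.25) and Bmpr1a (0.16) were higher, Bmpr1b (-0.47) and Hey1 (-0.41) were lower, and Id3 (0.05, adjusted p = 0.345) and Smad7 (-0.14, adjusted p = 0.705) were not called. Calls were lost with one library left out for Fst (without control 1, 2 or 3 or KO 1 or 2, adjusted p 0.0571 to 0.177), Bmpr1a (without control 2 or 3, adjusted p 0.0929 to 0.13), Bmpr1b (without control 1 or 2 or KO 2 or 3, adjusted p 0.0689 to 0.193) and Hey1 (without control 2 or KO 3, adjusted p 0.061 to 0.0692). The list median of 0.16 was -0.02 without the third KO library. Notch genes had 6 higher and 3 lower of 18 (median 0.05), and 4 higher and 4 lower without the third KO library (median -0.01). Hes5, the main Notch effector, measured 2.44, 2.25 and 3.45 CPM in the controls and 0.531, 0.43 and 0.339 CPM in the KO (log2 fold change -2.61, SE 0.38, adjusted p = 5.83e-05), the largest fall of a listed gene, at a low level. Notch3 (0.73) and Nrarp (0.61) rose and Dll1 fell (-0.46). In the Wnt list 7 were higher and 5 lower of 23, with Lgr5 (-1.25), Nkd1 (-0.78) and Wnt7a (-0.76) lower and Fzd5 (0.46), Fzd1 (0.45) and Fzd7 (0.37) higher.

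Markers of stem cell state were mixed. Of 36 tested markers of quiescent stem cells 17 were higher and 7 lower (median 0.26). Of 19 markers of activated stem cells 5 were higher and 9 lower (median -0.34). Relative to the controls, the activated list median was -0.32, -0.26 and -0.01 in KO libraries 1, 2 and 3. It was thus near 0 in the third. The quiescent list median was 0.20, 0.13 and 0.36. Mcm2 and E2f1 are also counted in the replication list, and Mki67 in the mitotic list. Clu (1.33) and Cpe (1.14) rose among the quiescent markers, while Hes5, Vcam1 (-0.94), Aldoc (-0.90) and Cd9 (-0.66) fell. Of the activated markers Mcm2 (-1.07), E2f1 (-0.82) and Sox11 (-0.49) fell, and Insm1 (0.75), Btg2 (0.74) and Olig2 (0.20) rose. The summed level of the quiescent list was 8865 to 8897 CPM in the controls and 10635 to 11773 CPM in the KO, and that of the activated list 6226 to 6307 and 5899 to 6126 CPM. Astrocyte markers, many of which stem cells also express, had 15 higher and 4 lower of 21 (median 0.31). Agt, angiotensinogen, measured 60.2, 60.5 and 56.1 CPM in the controls and 136, 141 and 193 CPM in the KO (log2 fold change 1.41, SE 0.15, adjusted p = 0.000302). Slc1a2 (0.87), S100b (0.60) and Glul (0.44) were higher and Kcnj10 (-1.23) and Slc6a11 (-0.68) lower. Gfap was at 2.7 to 5.1 CPM and Aqp4 under 1 CPM in every library.

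Summed levels of other cell types' markers were mostly somewhat higher in the KO. The 26 neuroblast and neuron markers summed to 1229 to 1326 CPM in the controls and 1300.4 to 1353 CPM in the KO, with Gad1 (1.18) and Prox1 (0.28) higher and Elavl4 (-1.25) lower of 11 tested. The 23 oligodendrocyte lineage markers summed to 5386 to 5451 and 6076 to 6470.1 CPM, with Olig1 (0.44), Cspg4 (0.32), Tcf7l2 (0.25) and Olig2 (0.20) higher and Sox8 (-0.21) lower of 12. Microglia markers summed to 34.1 to 41.4 and 47.6 to 57.6 CPM, 8 of 16 being at 0 in all libraries. Vessel and fibroblast markers summed to 10.5 to 14.3 and 17.2 to 18.8 CPM, 5 of 17 at 0, and ependyma markers to 18.02 to 21.9 and 21.2 to 29.2 CPM, 2 of 12 at 0. The groups did not overlap in the oligodendrocyte, microglia and vessel sums and overlapped in the neuroblast and ependyma sums. The calls of Prox1 (without control 3, adjusted p = 0.0722) and Tcf7l2 (without control 3, adjusted p = 0.0579) were lost with one library left out. The part of these markers in the results above was not tested.

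Clustered histone genes went against the fall of the cell cycle. Of 69 listed genes 20 passed the expression filter, which a gene can pass through its level in a single group. Members low in the controls could thus be tested because they were high in the KO. Of these 20 tested genes 15 were higher and 1 lower (median 1.19), the lower one being H1f10 (-0.64), which is not replication-dependent. H2ac19, given above, H4c14 (2.16), H4c18 (1.70), H1f3 (1.60) and H1f2 (1.57) were among the higher members. The highest fold change in the list was 2.39. Replication-dependent histone mRNAs normally lack a poly-A tail and these libraries were poly-A selected. Which forms of histone RNA were counted was not tested. Near-identical copies make single histone genes uncertain. Ion channel and synaptic genes had 23 higher and 5 lower of 34 (median 0.42), Kcnt1 and Ache among the higher and Kcnj10, Grin1 (-0.91) and Nlgn3 (-0.50) among the lower. Of 44 matrix and adhesion genes 17 were higher and 8 lower (median 0.16). Tnc, a tenascin of the stem cell niche, measured 2049, 2169.9 and 2088 CPM in the controls and 1191, 1284 and 858 CPM in the KO (log2 fold change -0.92, SE 0.15, adjusted p = 0.00399).

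By gene class, long noncoding RNAs were called higher in 116 of 515 cases (22.5%) and lower in 36 (6.99%), with a median of 0.21. Protein-coding genes were at 25.9% and 27.6% (median -0.01). Processed pseudogenes were called higher in 1 of 113 cases and lower in 16 (14.2%), and their reads can be shared with parent genes, the ribosomal protein genes given above among them.

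**Figure D4:**
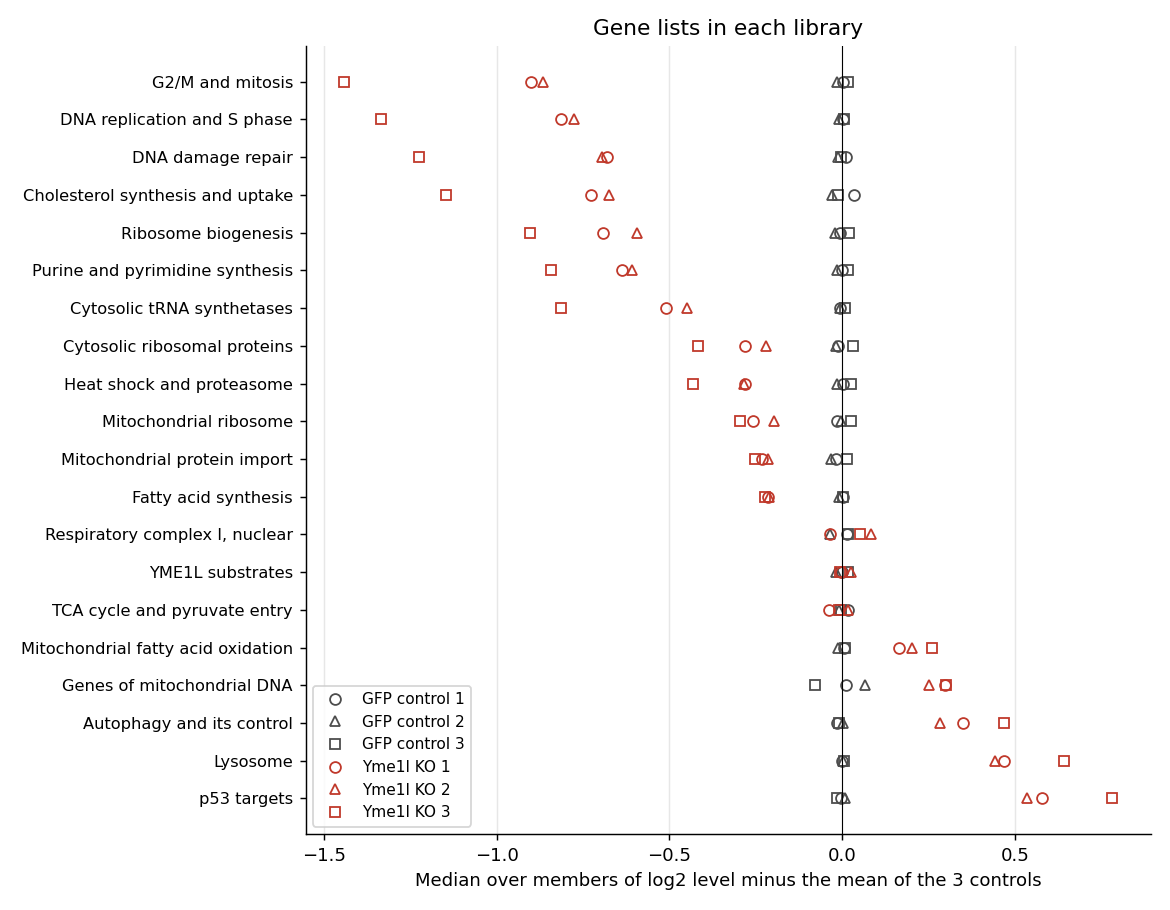
Median over the tested members of the log2 level in each library relative to the mean of the controls, for 20 gene lists (rows) in the 3 control and 3 KO libraries. Control medians lie near 0, and the third KO library lies farther out than the other 2 in the cell cycle lists, at -1.44 for G2/M against -0.90 and -0.87.

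Transcript counts were noisier than gene counts. Of 27616 tested transcripts 1518 were higher (5.5%) and 1753 lower (6.35%). Leaving out a KO library gave 615, 959 and 922 higher and 659, 1301 and 1346 lower for replicates 1, 2 and 3. Without any one control edgeR called 0 higher and at most 1 lower, with 2980 to 3003 higher and 3056 to 3135 lower at an unadjusted p under 0.05. On all 6 libraries DESeq2 called 2784 higher and 3066 lower. Of 7080 genes with at least 2 tested transcripts, 48 (0.678%) had an adjusted p for usage under 0.05 and a share that moved by at least 10 points. In 42 of the 48, a transcript was at 0 in every library of a group, which salmon can give when it assigns shared reads to another transcript. On simulated counts with 200 genes changed 4-fold in one transcript, the test recovered 23.5% and 39% of its calls were unchanged genes, so single switches are weakly supported.

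The 10 largest moves were in Kif7, Zfp36, Crocc, Rreb1, Rlbp1, Pnpla6, Zfp827, Src, Hps4 and Mcam, and each of these had a transcript at 0 in every library of a group. Kif7, a kinesin of cilia, went from 100%, 87.4% and 72.8% of transcript 203 in the controls to 0% in the KO. A second test (limma's diffSplice) also called 7 of the 48, and 4 of these had no such zero: Ampd2, Trio, Snrnp70 and Maz, which were named after their values were seen. Of the 10 usage settings, 3 called Ampd2 and 4 called each of Trio, Snrnp70 and Maz. Tmem161b and Fbxl17 were called in all 10 and by limma, but each had a transcript at 0 in every library of a group. In Tmem161b, transcript 201 made up 28.95%, 38.8% and 36.1% of the counts in the controls and 0% in the KO. Snrnp70, a core protein of the splicing particle U1, moved between its protein-coding transcript 201 and transcript 216, a form that keeps an intron. Transcript 216 made up 35.5%, 37.7% and 33.7% of the gene's counts in the controls and 54.3%, 50.4% and 62.4% in the KO, without overlap. Transcript 201 of Ampd2, an AMP deaminase, went from 46.2% to 67.7%, that of Trio, a guanine nucleotide exchange factor, from 64.6% to 43.2%, and transcript 204 of Maz, a zinc finger factor, from 12.6% to 28.1%.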

How the data were processed

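Poly-A RNA was sequenced from stranded libraries, per the labels' protocols. The authors quantified genes and transcripts with salmon and deposited estimated counts per gene, estimated counts per transcript and TPM values, per the file headers, with GRCm39 as the build and DESeq2 1.30.1 in R 4.0.3 per the submitters' processing notes. The deposited table of the authors' own comparison holds log2 fold changes and adjusted p-values, and was used only to compare calls.

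Gene counts of the 6 libraries were rounded to whole numbers, filtered with filterByExpr, normalised by TMM and tested with edgeR 4.0.16 (robust quasi-likelihood, R 4.3.3) between the groups. Genes with a Benjamini-Hochberg adjusted p under 0.05 were called. Standard errors were derived from the F statistic (size of the log2 fold change divided by its square root). Transcript usage was tested with edgeR's diffSpliceDGE after matching transcripts to genes by ID (138385 of 140725). Promoters were matched by symbol for 9729 tested genes (77.1%). On simulated counts for 12625 genes, 200 of them changed, edgeR called 71% of the 1.5-fold and 90% of the 2-fold changes, and 10.6% of its calls were unchanged genes. In the data 51.6% of tested genes were called, and the simulation gave all libraries of a gene the same spread. These rates need not hold for the data.

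Genes were named as follows: Yme1l1, the 12 largest changes in each direction, the 5 called genes with the most counts in each direction, up to 4 called members of each list in each direction and its first listed genes, every member of lists with at most 10, the 5 neighbours of Yme1l1 on each side, the 10 largest moves in transcript share, and up to 5 genes with the largest spread in the KO. Other members were named after their values were seen. Some members are counted in the lists and not reported by name here. Some genes belong to more than 1 list, so the counts of different lists are not separate results. The members and lists were chosen with earlier results of these data known. Alternatives were RLE (DESeq2's size factors), library size alone, no filter, a filter at 1 CPM, DESeq2 1.42.0, limma 3.58.1 on log2(TPM + 1), length-scaled counts, a 2-fold threshold, a replicate block and leaving out each library.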

Additional observations from a re-analysis of the deposited data

How the results depend on the processing

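Replicate numbers did not pair the libraries: deviations of same-numbered libraries correlated at 0.0004, -0.058 and -0.009. With the replicate block, 3063 genes were called higher and 3189 lower, 0 transcripts in either direction by edgeR (2745 higher and 3088 lower at an unadjusted p under 0.05), and 13 genes in the usage test. Called genes numbered 2683 to 3122 higher and 2884 to 3284 lower when one library was left out. At a 2-fold threshold they numbered 399 higher and 261 lower. On all 6 libraries DESeq2 called 2636 genes higher and 2781 lower. Limma on log2(TPM + 1) called 2356 genes higher and 2646 lower. With library size alone, 2896 were higher and 3660 lower, so 44.2% of calls were higher against 49.2%, with the median of all genes at -0.03. Yme1l1 stayed lower in every setting run. Transcript calls were the least stable: 2784 higher and 3066 lower with DESeq2, but 0 to 959 higher and 0 to 1346 lower with one library left out. Usage gave 51 to 75 genes with one library left out and 29 at 20 points. Of 486 named called genes, 408 kept direction and call under the 8 other fits and the 6 with one library left out. Of these fits, the one on length-scaled counts called as many genes as the main fit, 3201 higher and 3308 lower. It hardly differed from the main fit. The 2-fold threshold was applied to the counts only, not to each named gene. Mief1 (ENSMUSG00000022412), a fission adaptor, was lower at -0.21 and near 0 with limma on log2(TPM + 1) (0.0085, adjusted p = 0.965), and its call was also lost with DESeq2 and without control 1, control 3 or KO 1 (adjusted p 0.0602 to 0.0872). Limma alone also lost the calls of Abi1, Ehmt1, Insig2, Hacd2, Mgll, Pdk1, Sdhc, Arrdc4, Samhd1, Slc7a11, Fzd5, H1f3, Cbs and Rbfox2. Depth limits low genes, and transcript shares rest on fewer counts than gene levels.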
